A study of Mus musculus with 16 samples.

Results

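The genes Gm8300, Gm6787, Gm5766, Gm16381, Gm5039, Eif3j2 and Usp17la were followed with all their probes in mouse hearts measured on Agilent single-colour arrays. They are 7 of the 31758 genes or transcripts on the array and are read by 8 probes, 2 for Gm8300 and 1 for each of the others. The members were selected on measured values of these same arrays: 6 of them for a low level in 2-month MRflox hearts, which made them higher in cardioMRKO at that age, and Usp17la for its difference between the genotypes at 1 month. All 8 probes passed the filter on low signals, for which 1 group had to have all of its 4 arrays well above background, and the 7 genes are among 20055 tested.

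Each of the 16 arrays held RNA from the whole heart of 1 male mouse on a C57BL/6 background, with 4 mice in each of 4 groups. All mice carried the floxed allele of the mineralocorticoid receptor gene (Nr3c2). The cardioMRKO mice carried in addition the αMHC-Cre transgene, which is active in cardiomyocytes, and the MRflox mice were Cre-negative littermates. Both genotypes were taken at 1 month and at 2 months of age. There was no control with Cre alone, so the transgene and the deletion cannot be told apart, and heart cells other than cardiomyocytes keep the gene. In whole hearts, fewer cells of a type and less RNA per cell cannot be told apart.

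Mouse genes named Gm followed by a number are gene models that were predicted from the genome. Many belong to families of near-identical copies or are pseudogenes, copies that have lost the open reading frame of their parent. RefSeq lists 4 of the members as protein-coding (Gm8300, Gm16381, Eif3j2 and Usp17la) and 3 as transcribed pseudogenes (Gm6787, Gm5766 and Gm5039). Eif3j2 is a near copy of Eif3j1, which encodes the loosely bound j subunit of eIF3, the complex that prepares the small ribosomal subunit for scanning to the start codon. Usp17la, first described as Dub1, encodes a deubiquitinating enzyme induced by cytokines in blood cells. Array probes can bind transcripts of close copies, so each level below belongs to the probe, and which copy gave the signal is uncertain.

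A promoter sequence was at hand for 2 members, and both are printed because Gm16381 belonged to the genes that were low in older MRflox hearts while Usp17la did not. They hold the 250 bases before the RefSeq start of Gm16381 (chr12:87648984-87649233, minus strand, GRCm38.p6) and of Usp17la (chr7:104856766-104857015, plus strand, GRCm38.p6), each 5′ to 3′ on the strand of its gene. Capitals mark matches to the CCAAT box, which read ATTGG where the box lies on the opposite strand.
Gm16381: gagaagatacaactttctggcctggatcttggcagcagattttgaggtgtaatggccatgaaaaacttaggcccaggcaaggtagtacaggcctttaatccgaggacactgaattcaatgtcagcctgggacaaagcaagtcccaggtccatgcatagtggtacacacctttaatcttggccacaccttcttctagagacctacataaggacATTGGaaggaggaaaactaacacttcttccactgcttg
Usp17la: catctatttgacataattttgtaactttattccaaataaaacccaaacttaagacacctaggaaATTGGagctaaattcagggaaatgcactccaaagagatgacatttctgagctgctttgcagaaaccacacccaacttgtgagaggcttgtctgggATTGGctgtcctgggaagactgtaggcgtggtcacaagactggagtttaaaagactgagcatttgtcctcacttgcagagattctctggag

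Both strands were searched for 4 short motifs. The box marked above was found at −38 before the start of Gm16381 and at −186 and −91 before that of Usp17la, and 33.8% of the 32851 RefSeq windows of this length held it. The TATA box (searched as TATAAA) was in neither window, beside 12.4% of all windows that held it. The half-site of the corticosteroid receptors (searched as TGTTCT) was in neither, beside 16.1% of all windows, and the E-box (searched as CACGTG) in neither, beside 6.02%. Absence says only that these letters are not in these windows. The Usp17la window had copies in Usp17lb, Usp17lc and Usp17ld, with 82.4%, 79.2% and 72.4% of bases identical. The Gm16381 window shared a part with windows before 5 other predicted genes, from Gm46242 with 80.8% identical bases to Gm4513 with 64.0%. Each of these shared 12 stretches of 20 bases with it, beside 51 to 91 for the Usp17l windows. A window was counted when at least 10 such stretches were shared. The stretches could overlap, so a short common run is enough, and whether the whole Gm16381 window is duplicated was not tested.

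Levels are log2 processed intensities minus the 75th percentile of the array, so that 0 is the 75th percentile, and a level says nothing on how the RNA of one gene compares with that of another. The 75th percentile lay between 527 and 1092 intensity units, and 62.5% to 71.6% of probes were well above background on each array. The 7 cardiomyocyte markers Myh6, Tnnt2, Tnni3, Actc1, Ryr2, Myl2 and Pln were above background on all arrays, with mean levels of 7.12 to 7.58. Nr3c2 differed by −0.19 at 1 month (exact permutation p = 0.229, two-sided, n = 4 against 4) and by −0.42 at 2 months (exact permutation p = 0.0286, the smallest this design allows). Neither passed over all genes (limma adjusted p = 0.973 and 0.129), and no source used here says whether its probe lies in the floxed part. The mean level of 6 airway epithelium genes (Cyp2f2, Scgb1a1, Scgb3a2, Sftpa1, Sftpc and Sftpd) ran from −6.16 to 2.93 over the 8 arrays at 1 month and from 0.19 to 5.47 over those at 2 months. Spike-in controls read −0.76 relative to their mean over arrays in replicate 4 of the 2-month MRflox group and −0.54 in replicate 3 of the 2-month cardioMRKO group. The 4 arrays of a group shared 1 slide that held no other group, so effects of slide and of group cannot be told apart, and the number of arrays limits the precision throughout.

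**Figure D1:**
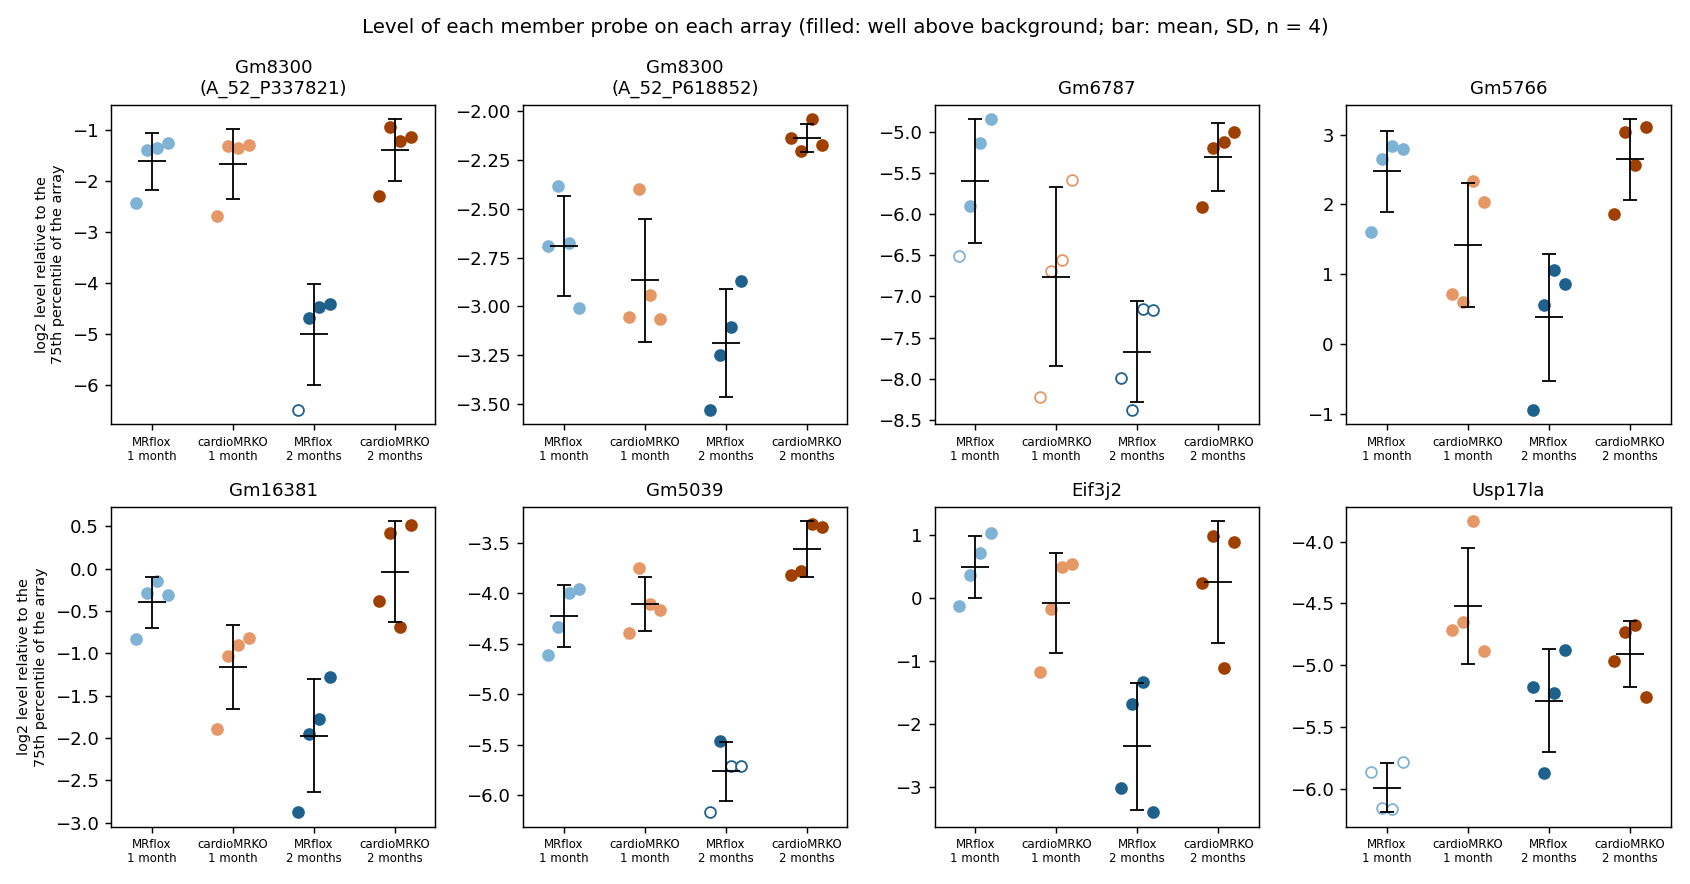
Log2 level of each member probe minus the 75th percentile of its array (vertical axis), on the 4 arrays of each group (horizontal axis). Filled points were well above background and open points were not, and bars give the mean and SD (n = 4). In the 6 genes other than Usp17la the dark blue points of 2-month MRflox lie lowest on average, and for Usp17la the lowest mean is that of MRflox at 1 month, with 1 array of 2-month MRflox inside its range.

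In 2-month MRflox hearts Gm8300, Gm6787, Gm5766, Gm16381, Gm5039 and Eif3j2 stood at their lowest group mean, and in none of these 6 did an array of 2-month MRflox reach an array of 2-month cardioMRKO. Differences between cardioMRKO and MRflox at 2 months ran from 1.93 (Gm16381) to 3.61 (Gm8300) on the log2 scale in 5 of the 6, and Gm6787 was at least 1.80-fold higher, although it turned to −0.01 with another background correction (normexp). These arrays chose the members, so the values are a description and carry no test. All 6 passed the adjusted threshold as the choice required, beside 1.57% of all genes higher and 2% lower, and 2.88% of all genes had every cardioMRKO array above every MRflox array. Among genes with a symbol and a difference above 0, Sfmbt2, with 0.70, lay just inside the threshold and Arl6ip4, with 0.46, just outside. The median of the 6 was 2.31, or 2.23 with Gm6787 at its bound, beside −0.08 over all genes tested. The call ended in Gm6787, Gm5766 and Eif3j2 when cardioMRKO replicate 2, cardioMRKO replicate 4 or MRflox replicate 1 at 2 months was left out. It ended in Gm6787 and Gm5766 without cardioMRKO replicate 3 and in Eif3j2 without MRflox replicate 4, and the differences in these cases were 1.82 to 2.39. The airway genes had mean levels of 2.25 to 5.47 on the 2-month MRflox arrays and 0.19 to 2.94 on those of cardioMRKO, with 0 of 6 called. Of 5 testis germ cell markers tested, 1 was called lower in cardioMRKO, Prm1, a sperm protamine, with −1.35 (limma adjusted p = 0.0048). Tnp1 (−0.75), Tnp2 (−0.69), Prm2 (−0.52) and Ddx4, which was above 0 (0.22), were not called. The mean level of the 7 germ cell markers on the array was −4.68 to −4.19 in 2-month MRflox and −5.18 to −4.07 in cardioMRKO. The part of the airway and germ cell markers in the result was not tested.

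Gm8300, Gm16381 and Gm5039 lie between Snw1 and Adck1 in RefSeq, in a stretch of 71 genes of which 18 are protein-coding and 53 are pseudogenes, and 6 of the 71 are on the array.

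Gm8300, by the probe A_52_P337821, read −2.44, −1.39, −1.37 and −1.27 in MRflox replicates 1 to 4 at 1 month and −2.69, −1.32, −1.35 and −1.29 in cardioMRKO. At 2 months it read −6.48, −4.68, −4.47 and −4.40 in MRflox and −2.29, −0.94, −1.22 and −1.15 in cardioMRKO. The 4 arrays of 2-month MRflox were below all 12 others, and the other 3 groups overlapped. The spot was 1.67 to 2.48 times as bright as its local background on the 2-month MRflox arrays, of which 3 of 4 were called above background, and 8.11 to 19.9 times on those of cardioMRKO. The difference at 2 months was 3.61 (SE 0.48), or 12.2-fold, and 1.88 with normexp, and the level in MRflox was 3.39 (SE 0.48) lower at 2 months than at 1 month.

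A second probe for the same Gm8300 transcript, A_52_P618852, gave a smaller difference. It read −2.69, −2.38, −2.68 and −3.01 in MRflox and −3.06, −2.40, −2.94 and −3.07 in cardioMRKO at 1 month. At 2 months it read −3.53, −3.25, −3.11 and −2.87 in MRflox and −2.14, −2.20, −2.04 and −2.17 in cardioMRKO, and it was above background on all 16 arrays. Here the 2-month MRflox arrays overlapped with both 1-month groups, and the 2-month cardioMRKO arrays were above all others. The difference between the genotypes at 2 months was 1.05 (SE 0.17), and that between the ages was −0.50 (SE 0.17) in MRflox and 0.73 (SE 0.17) in cardioMRKO. Thus both probes placed cardioMRKO above MRflox at 2 months, and they differed in whether the step between the ages lay mainly in MRflox or in cardioMRKO. The correlation of the probes over 16 arrays was 0.686.

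Gm16381 read −0.84, −0.29, −0.15 and −0.31 in MRflox and −1.89, −1.03, −0.90 and −0.82 in cardioMRKO at 1 month. The older arrays read −2.87, −1.95, −1.77 and −1.28 in MRflox and −0.38, 0.41, −0.70 and 0.51 in cardioMRKO. The 2-month MRflox arrays were below all arrays of MRflox at 1 month and of cardioMRKO at 2 months, and overlapped with cardioMRKO at 1 month. The difference at 2 months was 1.93 (SE 0.35), or 3.82-fold, and the probe was above background on all 16 arrays.

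Gm5039 had the smallest SE of the 6 genes. It read −4.61, −4.33, −4.00 and −3.96 in MRflox and −4.40, −3.75, −4.10 and −4.17 in cardioMRKO at 1 month. At 2 months it read −6.16, −5.47, −5.71 and −5.70 in MRflox, where 1 of 4 arrays was above background, and −3.82, −3.78, −3.31 and −3.34 in cardioMRKO. All 4 arrays of 2-month MRflox were below all 12 others. The difference at 2 months was 2.20 (SE 0.19), on a spot that was 1.61 to 1.84 times its local background in MRflox and 3.30 to 4.96 times in cardioMRKO. No exact fold is given, since the difference was 0.44 with normexp and 0.86 with no background subtracted.

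The other genes of the stretch that the array reads were not called between the genotypes. Gm5662 differed between the genotypes by 0.01 (SE 0.10) at 2 months and Gm7104 by 0.09 (SE 0.17). Another Gm5662 probe was above background on at most 1 array of any group and did not pass the filter, so the value is that of 1 probe. Gm7104 also had its lowest group mean in 2-month MRflox (−4.30), and differed from 1-month MRflox by −0.30 without overlap of arrays, although it was not called (limma adjusted p = 0.213). Oog1, an oocyte gene, was above background on none of the 16 arrays. Whether Gm5662 or Gm7104 differed from the members was not tested.

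Gm6787 was measured near background. It read −6.51, −5.91, −5.14 and −4.85 in MRflox at 1 month, with 3 of 4 arrays above background, and −8.22, −6.69, −6.55 and −5.59 in cardioMRKO, with 0 of 4. The older arrays read −7.99, −8.38, −7.16 and −7.16 in MRflox, with 0 of 4 above background, and −5.91, −5.20, −5.12 and −4.997 in cardioMRKO, with 4 of 4. Arrays of 2-month MRflox were below all arrays of cardioMRKO at 2 months and of MRflox at 1 month, and overlapped with cardioMRKO at 1 month. A probe above background on no array of a group has only a bound there, which takes for each array the higher of its own value and the lowest signal among probes above background. By that bound cardioMRKO was at least 1.80-fold above MRflox at 2 months, MRflox was at least 1.47-fold lower at 2 months than at 1 month, and cardioMRKO was at least 1.53-fold higher at 2 months than at 1 month. These bounds hold for the processed signal only: with normexp the 2-month genotype difference was −0.01, the age difference −0.02 in MRflox and 0.13 in cardioMRKO, and with no background subtracted they were 0.35, −0.30 and 0.29.

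The spot of Gm5766 was 16.9 to 264 times as bright as its local background over the 16 arrays. It read 1.60, 2.65, 2.83 and 2.80 in MRflox and 0.72, 0.60, 2.33 and 2.03 in cardioMRKO at 1 month. At 2 months it read −0.95, 0.56, 1.06 and 0.86 in MRflox and 1.86, 3.04, 2.57 and 3.11 in cardioMRKO. The 2-month MRflox arrays were below both the younger MRflox and the older cardioMRKO arrays and overlapped with cardioMRKO at 1 month. The difference at 2 months was 2.26 (SE 0.50), or 4.79-fold.

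Eif3j2 read −0.13, 0.36, 0.71 and 1.02 in MRflox and −1.18, −0.18, 0.48 and 0.54 in cardioMRKO at 1 month. The levels at 2 months were −3.01, −1.68, −1.34 and −3.40 in MRflox and 0.24, 0.98, −1.11 and 0.88 in cardioMRKO. All 4 arrays of 2-month MRflox were below all 12 others, and replicate 3 of cardioMRKO was low in its group. The difference at 2 months was 2.60 (SE 0.55), or 6.07-fold, and the probe was above background on all 16 arrays.

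The near copy Eif3j1 and other initiation factors were not called between the genotypes. The probes of Eif3j1 differed by −0.05 (SE 0.09) and −0.14 (SE 0.10) at 2 months, that of Eif1ax, a start codon selection factor, by −0.0049 (SE 0.11), and that of Eif1a by 0.05 (SE 0.11). Of 13 eIF3 subunit genes, 0 passed in any comparison by limma, and 0 and 1 had an unadjusted p under 0.05 at 1 and 2 months. Of 16 further factors around the start codon 0 passed in either genotype comparison (0 and 3 with an unadjusted p under 0.05). Among the 3 was Eif4e, the cap-binding protein, with −0.26 (SE 0.08) at 2 months. Over all genes tested, 1187 and 3783 of 20055 had an unadjusted p under 0.05 at 1 and 2 months. The medians of these lists at 2 months were −0.07 and −0.05, beside −0.08 over all genes.

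Usp17la did not share the low level in older MRflox hearts that names the group, so the label does not hold for it. It read −5.86, −6.15, −6.16 and −5.78 in MRflox at 1 month, where 0 of 4 arrays were above background, and −4.72, −4.65, −3.84 and −4.88 in cardioMRKO. At 2 months it read −5.18, −5.87, −5.22 and −4.88 in MRflox and −4.96, −4.73, −4.67 and −5.26 in cardioMRKO, and the genotypes overlapped. Every cardioMRKO array at 1 month was above every MRflox array of that age, by a bound of at least 2.68-fold, and MRflox was at least 1.58-fold higher at 2 months than at 1 month, with the groups overlapping by 1 array. Both bounds hold for the processed signal only: the 1-month difference was 0.27 with normexp and 0.47 with no background subtracted, and the age difference in MRflox 0.23 and 0.21. The 1-month difference chose this gene and is given without a test. At 2 months the difference was 0.38 (SE 0.24). Its spot was 1.65 to 3.02 times as bright as its local background over all arrays.

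Other genes of the deubiquitinase family were measured beside it. The relatives Usp17lc and Usp17le were above background on none of the 16 arrays. Of 35 further ubiquitin-specific proteases 0 passed at 1 month (0 with an unadjusted p under 0.05), and 1 was lower in cardioMRKO at 2 months, where their median was 0.02. That gene was Usp25, with −0.41 (SE 0.09, limma adjusted p = 0.0221). Usp28 differed by −0.29 at 1 month (limma adjusted p = 0.858).

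**Figure D2:**
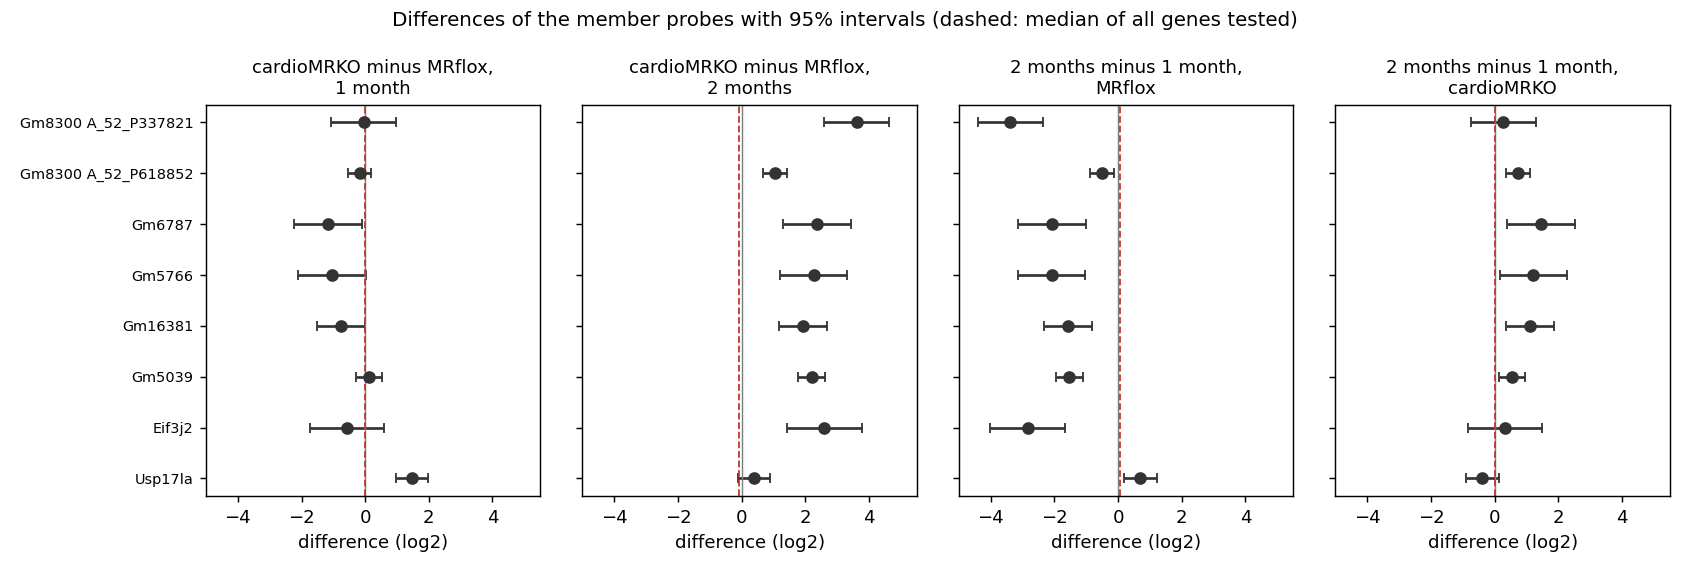
Difference of each member probe (rows) in the 4 comparisons (panels), as log2 differences with 95% intervals from the limma fit of 16 arrays, with the median of all genes dashed. At 2 months the 6 genes lie between 1.93 and 3.61 with the second Gm8300 probe at 1.05, and at 1 month their intervals lie around or below 0.

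The 1-month arrays did not choose the 6 genes, so the genotype comparison at that age could be tested for them, with limits. The errors in this test came from the fit of all arrays, including the older ones that chose these genes. Gm6787 passed the filter on low signals only through older cardioMRKO hearts, where its group mean was highest. Its entry into the test therefore depended on arrays that chose it. In young hearts 0 of the 6 passed over all genes, and 5 of 6 lay below 0, of which Gm8300 turned to 0.0163 with no background subtracted. The mean of Gm6787 was lower in cardioMRKO by a bound of at least 1.25-fold, and its measured means differed by −1.16 (SE 0.50, limma adjusted p = 0.811). That bound holds for the processed signal only: the difference was −0.16 with normexp and −0.23 with no background subtracted. Gm5766 differed by −1.05 (95% interval −2.11 to 0.01, limma adjusted p = 0.844) and Gm16381 by −0.76 (−1.51 to −0.01, limma adjusted p = 0.835). Eif3j2 differed by −0.57 (−1.75 to 0.60), Gm8300 by −0.05 (−1.07 to 0.98) and Gm5039 by 0.12 (−0.30 to 0.54). In all 6 the arrays of the genotypes overlapped.

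At this age 0.0499% of all genes were called higher and 0.0449% lower, and 8.07% of all genes had groups that did not overlap in either direction, beside 0 of these 6. An unadjusted p under 0.05 was reached by Gm6787 (0.0343) and Gm16381 (0.0469), with the limits given above, and by 1187 of 20055 genes. The median of the 6 was −0.67, or −0.45 with Gm6787 at its bound, beside 0.0023 over all genes. The upper ends of the 95% intervals were 0.98 or lower in all 6 genes.

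Between the ages, MRflox levels of the 6 genes were lower at 2 months, by 1.54 (Gm5039) to 3.39 (Gm8300) in 5 of them and by at least 1.47-fold in Gm6787. By the first Gm8300 probe and the 5 other probes, all 6 were called lower and had no overlap of arrays, beside 6% of all genes called lower and 8.17% lower without overlap. The second Gm8300 probe overlapped and was not called, and with normexp the calls of Gm6787 (−0.02) and Gm5039 (−0.27) ended. Usp17la was called higher (0.70), beside 16.7% of all genes and 67.5% of 268 olfactory and vomeronasal receptor genes, whose median difference was 1.01. Its call was lost in 9 of 11 alternative settings and in 7 of 8 fits that left out 1 array. These values use arrays that chose the members, those of MRflox at 2 months for the 6 genes and at 1 month for Usp17la, and are a description. The airway genes moved with this comparison: all 6 had differences above 0 and 5 were called higher in MRflox at 2 months. Their mean level was −6.16 to −5.30 in MRflox replicates 1 to 3 at 1 month and 2.25 to 5.47 at 2 months, with all 6 above background at 2 months. In MRflox replicate 4 at 1 month that mean was 2.93, inside the range of the older group, and the mean centred level of the 6 members there was 1.03, the highest of its group. Arrays of 1-month cardioMRKO went the other way. Replicate 1 there had the highest airway mean of its group (2.05) and the lowest member mean (−0.82). Replicate 3 had the lowest airway mean (−5.88) and a member mean of 0.44. Of the B cell, T cell, adipocyte and testis germ cell markers tested, 1 of 4, 2 of 6, 1 of 5 and 3 of 5 were called higher in MRflox at 2 months. Between the ages in cardioMRKO all 6 airway genes were also above 0 (2.59 to 3.85), with 0 called. Of the B cell, T cell, adipocyte and testis germ cell markers tested, 3 of 4, 1 of 6, 1 of 5 and 0 of 5 were called higher there. The part of these markers and of the airway genes in the result was not tested.

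In cardioMRKO the levels of the 6 genes at 2 months were above those at 1 month by 0.26 (Gm8300) to 1.22 (Gm5766) in 5 of them and by at least 1.53-fold in Gm6787. These values use the 2-month cardioMRKO arrays, which entered the choice of the members, and are a description too. With 1 probe for each gene, 0 were called by limma, and 5.6% of all genes were called higher and 4.63% lower. An unadjusted p under 0.05 was reached by 4 of the 6, beside 4988 of 20055 genes. Among the 4 was Gm6787, above background on no cardioMRKO array at 1 month. Gm16381 and the second Gm8300 probe (0.73, SE 0.17) had arrays that did not overlap, beside 9.83% of all genes higher without overlap, and that probe passed the threshold. Eif3j2 (0.33, SE 0.55) and the first Gm8300 probe (0.26, SE 0.48) had differences smaller than their errors. The genotype difference at 2 months minus that at 1 month, which also uses the arrays that chose the members, ran from 2.08 (SE 0.28, Gm5039) to 3.66 (SE 0.68, Gm8300) in the 6 genes and was −1.09 (SE 0.34) in Usp17la.

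**Figure D3:**
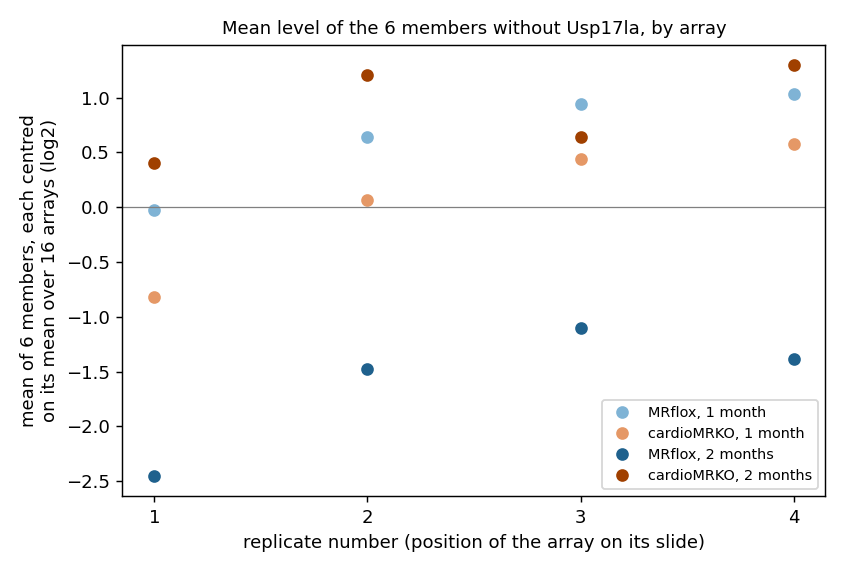
Mean level of the 6 genes on each array (vertical axis, log2, each gene centred on its mean over 16 arrays) against the replicate number, which is the position of the array on its slide (horizontal axis). The 4 arrays of 2-month MRflox lie between −2.45 and −1.10, below all others, and the array at position 1 is the lowest of its group in all 4 groups.

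The 6 genes also varied together from array to array within a group. In each of the 4 groups the array with replicate number 1, which the file headers place at position 1 of the slide, had the lowest mean of the 6: −0.03 in MRflox and −0.82 in cardioMRKO at 1 month, −2.45 in MRflox and 0.41 in cardioMRKO at 2 months. Over the 8 probes that array was the lowest in 20 of 32 groups, in 4 of 4 for the first Gm8300 probe and for Gm5039 and in 0 of 4 for Usp17la. Among the 15 pairs of the 6 genes the correlation of levels was 0.747 to 0.937 over 16 arrays (median 0.81) and 0.274 to 0.842 (median 0.592) after the group means were removed. Pairs with Usp17la had −0.107 to 0.176 over the arrays. The 6 genes were chosen for low levels on the same arrays, those of 2-month MRflox, and Usp17la by another comparison. The correlations over 16 arrays therefore follow in part from the choice, both among the 6 and with Usp17la, and are a description. All of these correlations describe arrays that share slides, scaling and groups.

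Without the 4 arrays of position 1, a setting chosen after seeing the data, the 2-month differences were 3.41 for Gm8300, 2.08 for Gm5766, 1.75 for Gm16381, 2.15 for Gm5039 and 2.39 for Eif3j2, and 5 of the 6 genes still passed, Eif3j2 not. The call of Usp17la at 1 month ended in that setting, although its difference was 1.57. It also ended when any 1 of 7 of the 8 arrays at 1 month was left out (limma adjusted p 0.0581 to 0.119), and held without cardioMRKO replicate 4 (0.0403).

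**Figure D4:**
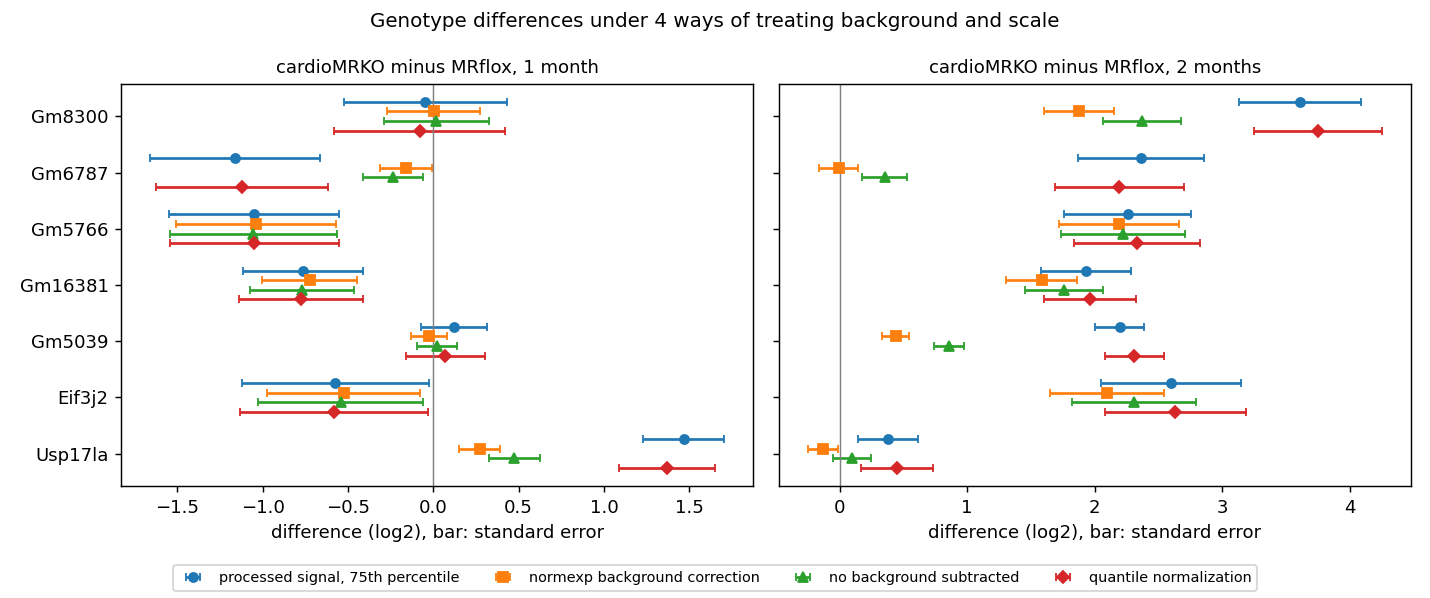
Genotype differences of the 7 genes (rows) at 1 month and at 2 months (panels), as log2 differences with SE bars, with 4 ways of treating background and scale (colours and symbols). Gm8300, Gm5766, Gm16381 and Eif3j2 keep 2-month differences of 1.58 or more under all 4, and with normexp Gm6787 is at −0.01 at 2 months and Usp17la at 0.27 at 1 month.

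How background was treated changed some members' differences and left others near their value. With normexp background correction, which adds an offset of 50, the 2-month difference was 2.19 in Gm5766, 2.10 in Eif3j2 and 1.58 in Gm16381. It was 1.88 in Gm8300, 0.44 in Gm5039 and −0.01 in Gm6787, the last on the other side of 0. The 3 members with 2-month differences least moved by this choice were above background on all 16 arrays.

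Other genes followed the same course over the arrays. By correlation with the mean centred level of the 7 members over 16 arrays, the genes with a symbol most like it were Gm3086 (0.961), Tmem245 (0.959), Gm8363 (0.952), Cdk5rap2 (0.952), BC051665 (0.944), Rps15a-ps4 (0.94), Myh4 (0.936) and 1600029O15Rik (0.934). Their 2-month differences, chosen by the likeness, ran from 0.88 (BC051665) to 2.00 (Tmem245). Gm3086 stood at −1.08 ± 0.15 (SD, n = 4) in MRflox at 1 month and −2.68 ± 0.79 at 2 months, and at −1.48 ± 0.51 and −0.92 ± 0.31 in cardioMRKO. The Myh4 probe, named for a skeletal muscle myosin, stood at 6.70 ± 0.19 and 5.25 ± 0.40 in MRflox and at 6.30 ± 0.29 and 6.48 ± 0.27 in cardioMRKO. Another Cdk5rap2 probe correlated at 0.269, so the likeness was that of 1 probe and not of the gene.

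In total 242 genes correlated above 0.8 with the members and 151 below −0.8. Of the 242, 32.6% had a symbol, beside 74.6% of all genes tested. At 2 months 190 of 5102 genes without a symbol (3.72%) were called higher in cardioMRKO and 2.12% lower, and of 14953 with a symbol 124 were called higher and 294 (1.97%) lower. Of 88 further predicted Gm genes tested, 0 passed at 1 month by limma (8 with an unadjusted p under 0.05), and 2 were higher (Gm8363 by 1.89, Gm3086 by 1.76) and 4 lower at 2 months, with a median of −0.05. Of 40 genes known from the 2-cell embryo, a stage at which many multi-copy genes are active, 12 were on the array and 3 were tested. These were Zscan4c, Gm5662 and Sp110, and 0 of them passed in either genotype comparison or had an unadjusted p under 0.05 (differences −0.25 to 0.07). Of 7 oocyte markers 1 was tested, and 1 to 4 were above background on any array.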

How the data were processed

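Gene expression was measured in 16 whole mouse hearts on Agilent single-colour arrays, labelled with Cy3 from 500 ng of total RNA per the labels' protocols. Feature Extraction 12.0.0.7 read the spots per the file headers (9.5 per the submitters' processing notes). The deposited value of each spot is an intensity, already background-subtracted per the file headers, and uncorrected median intensities of each spot and of its surroundings were deposited as well. The deposited series matrix equals the array files (maximum difference 0), so the authors' values carry no normalization between arrays.

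Spots of a probe were averaged, outlier spots were set missing, and the log2 intensity was used after subtraction of the 75th percentile of all non-control probes on the array. Of 41174 probes 27277 had a group whose 4 arrays were all well above background and were kept, and the probe with the highest mean was taken per gene (20055 genes). Symbols came from RefSeq (GRCm38.p6) through accessions. The headers name mm9, so no gene coordinates are given, and the sequences are RefSeq promoter windows of GRCm38.p6.

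All 16 arrays entered 1 limma fit (limma 3.58.1, R 4.3.3, 12 residual degrees of freedom), with Benjamini-Hochberg adjustment over all genes and a threshold of 0.05. Tested on simulated data of 20055 genes for the 1-month comparison, the fit recovered 76 of 100 genes changed by 1 and 93 of 100 changed by 2 on the log2 scale, with 11 false calls. The simulated noise was independent between genes and held no effect shared by an array or slide. These rates are therefore not rates for the members. The members and gene lists were chosen with earlier results of these data known. Named were the members with all probes, Nr3c2, near relatives, up to 3 genes of a list by the smallest p in each genotype comparison, and the 8 genes with a symbol most like the members, with a few more of those lists named after their values were seen.

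Alternatives were normexp correction (offset 50), no background subtraction, quantile and median scaling, other filters and probe rules, the 8 arrays of a comparison, array weights, a replicate block and leaving out each array. Normexp was run on the median spot signal, since the mean signal was not used here. Slide could not enter as a block, since each slide holds 1 group. Same-numbered arrays of different groups deviated from their group means with a median correlation of 0.061 (−0.313 to 0.359). For arrays with different numbers the median was −0.015 (−0.402 to 0.398). Correlations above 0.1 were found in 10 of 24 pairs with the same number and in 13 of 72 with different numbers. The ranges overlapped, and the numbers were not taken to pair the samples. Whether arrays at the same position of their slides share an effect was not tested.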

Additional observations from a re-analysis of the deposited data

Results flagged for a closer look

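In 4 of 32 sets of 4 arrays (8 probes in 4 groups), 1 array stood apart, with a gap to its nearest neighbour above the 95% critical share of the range in Dixon's test. Chance gives about 1 in 20. All 4 were arrays with replicate number 1 and lay on the low side. The first Gm8300 probe read −2.44 in MRflox replicate 1 at 1 month (nearest array −1.39), −2.69 in cardioMRKO replicate 1 at 1 month (nearest −1.35) and −6.48 in MRflox replicate 1 at 2 months (nearest −4.68), where that spot was not above background. Gm5766 read 1.60 in MRflox replicate 1 at 1 month (nearest 2.65).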

How the results depend on the processing

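Precision is limited by n = 4, and Gm6787, Gm5039, Usp17la and the first Gm8300 probe lie close to background in at least 1 group. The count of members called at 1 month, 1 (Usp17la), was 0 with normexp, with no background subtracted, with quantile normalization, without a filter, in a fit of 8 arrays, and with all position 1 arrays left out (chosen after seeing the data), and 0 to 1 when each array was left out in turn. When a probe had to be above background on all 16 arrays, 4 members were tested (Gm8300 by its second probe), without Gm6787, Gm5039 and Usp17la, so that the count of 0 at 1 month follows from the filter. At 2 months the 6 members called were 3 in a fit of 8 arrays and 3 to 6 when each array was left out. In MRflox between the ages 7 members were called, 4 with normexp, 3 of the 4 tested under the filter over all 16 arrays and 6 to 7 when each array was left out. In cardioMRKO between the ages 0 were called, 1 of the 4 tested under that filter (Gm8300), 1 with array weights and 0 to 1 when each array was left out. Over all genes 19 were called at 1 month, 12 with normexp, 10 in a fit of 8 arrays, 350 with array weights, 2 without position 1 arrays and 8 to 17 when each array was left out. At 2 months 716 were called, 445 without a filter, 96 in a fit of 8 arrays and 309 to 880 when each array was left out. The split into higher and lower at 2 months was 314 and 402, and it was 223 and 641 with normexp, 73 and 23 in a fit of 8 arrays and 490 and 287 with array weights. The causes of these shifts were not tested.

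Values that changed sign were those of Gm8300 at 1 month (0.0029 with normexp, 0.0163 with no background subtracted, 0.0195 without position 1 arrays, −0.32 to 0.30 when each array was left out) and Gm5039 at 1 month (−0.0238 with normexp, −0.0060 to 0.22 when each array was left out). So did Gm6787 (−0.0079) and Usp17la (−0.13) at 2 months with normexp. In cardioMRKO between the ages Eif3j2 turned to −0.0298 without position 1 arrays (−0.0335 to 0.78 when each array was left out) and Gm8300 ran from −0.0781 to 0.56 when each array was left out.

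The replicate number was also run as a block, although it was not taken to pair the samples. With the block 0 members were called at 1 month, 6 at 2 months and 6 in MRflox between the ages. In cardioMRKO between the ages 4 were called (0 without the block), and over all genes 1039 were called at 2 months. The best partner of an array outside its group shared its number in 8 of 16 arrays. Slide as a block was not run, since slide and group cannot be told apart, and the series matrix gave the same values as the array files.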
